A study of Homo sapiens with 36 samples.

Results

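The genes described here were 10 regulators of mitochondrial apoptosis of the BCL2 family. They were chosen by name, as rows of PMAIP1, BBC3, BIK, BCL2L11, BID, BAX, BAK1, BCL2, BCL2L1 and MCL1, and all 10 were present in each of 3 RNA-seq experiments, among 16431, 17035 and 16459 genes. The cells were NT2/D1-A4 and 2102EP-C1, cisplatin-resistant clones of embryonal carcinoma lines, a pluripotent type of testicular germ cell tumor. In the first and second experiments, NT2/D1-A4 or 2102EP-C1 cells were left as controls, treated with 0.5 µM cisplatin for 6 h, treated for 3 days with 1.0 µM GSK-J4, which inhibits the histone H3K27 demethylases KDM6A and KDM6B, or pretreated with GSK-J4 and then given cisplatin. In the knockdown experiment, 2102EP-C1 cells carried the empty vector pLKO.1 or a pair of short hairpin RNAs, one to KDM6A and one to KDM6B (sh6A+6B). They were given PBS or the same dose of cisplatin. Arms with vehicle or PBS and no drug are called untreated below. RNA was collected 24 h after cisplatin. Each experiment had 4 arms of 3 libraries, described by the submitters as biological replicates, so the 36 libraries came from 2 clones and, for the knockdown, from drug-selected cells with 1 hairpin for each gene. The comparison asked of these genes was how their RNA responded to cisplatin, to GSK-J4 or knockdown, and to both.

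The BCL2 family decides whether the outer membrane of the mitochondrion stays intact. BAX and BAK1 form the pores through which cytochrome c leaves to activate caspases, BCL2, BCL2L1 (BCL-XL) and MCL1 hold them back, and the BH3-only proteins PMAIP1 (NOXA), BBC3 (PUMA), BIK, BCL2L11 (BIM) and BID engage the guardians or activate the pore formers. PMAIP1 binds chiefly MCL1. PMAIP1, BBC3 and BAX are known to be induced by DNA damage, which is how cisplatin acts, and PMAIP1, BBC3 and BCL2L11 are also known targets of other stress pathways.

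Values are log2 counts per 1e6 counted reads (CPM), and a library held 26.8 to 49.5 M reads (M, 1e6) in the NT2/D1-A4 experiment, 30.3 to 53.6 M in the 2102EP-C1 GSK-J4 experiment and 79.4 to 100.9 M in the knockdown experiment. Of 9 embryonal carcinoma markers 8 were listed in each experiment, with POU5F1 at 487 CPM or more in every NT2/D1-A4 library and 611 CPM or more in every 2102EP-C1 library. Levels differed among them, and the marker TNFRSF8 (CD30) was at 0.970 to 1.49 CPM in NT2/D1-A4 and 2.89 to 8.62 CPM in 2102EP-C1 cells. Of 6 markers of other cell types at most 2 were listed, AFP at 0.672 CPM or less and the collagen gene COL1A1 at 4.55 to 6.95 CPM in NT2/D1-A4 and 16.1 to 26.5 CPM in 2102EP-C1 cells, above TNFRSF8 in each. Knockdown was visible in its targets. In the pLKO.1 libraries KDM6A was at 7.16, 7.17 and 7.15, and in the sh6A+6B libraries at 6.14, 6.09 and 6.20. KDM6B went from 4.61, 4.66 and 4.63 to 3.51, 3.61 and 3.75. KDM6B was instead higher after GSK-J4, by 0.88 on the log2 scale in NT2/D1-A4 cells and by 0.81 in 2102EP-C1 cells. A gene was called changed past a fold change of 1.3 with a Benjamini-Hochberg adjusted p under 0.05 in limma-trend over all genes of the experiment, and "rose" and "fell" are used for such calls alone. All adjusted p-values given are from that fit, with n = 3 libraries an arm, unless another is named. In bulk RNA, fewer cells of a type and less RNA per cell cannot be told apart, and the share of dying cells in the arms is not known from these files.

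Per transcript length, the guardian MCL1 had the highest level of the 10 genes in untreated cells and the guardian BCL2 the lowest. Over the 3 untreated libraries MCL1 ran from 208 to 213 reads per kilobase of transcript per 1e6 reads (RPKM) in NT2/D1-A4 cells, from 248 to 250 in 2102EP-C1 controls and from 220 to 223 in pLKO.1 cells. The pore former BAX followed at 65.9, 107 and 91.1 RPKM on average, then PMAIP1 at 24.6, 51.4 and 47.0. BAX and PMAIP1 changed places when the length of all annotated exons was used instead of the main transcript, so their order depends on which isoforms are made. BCL2L1 was at 13.98, 23.5 and 39.4 RPKM and BAK1 at 14.3, 12.8 and 12.6. In NT2/D1-A4 controls the ranges of BAK1 (14.2 to 14.3) and BCL2L1 (13.9 to 14.1) lay side by side. BBC3 (2.80, 6.46 and 5.57 RPKM), BCL2L11 (4.45, 3.64 and 3.72), BID (2.45, 2.53 and 2.47) and BIK (1.34, 2.55 and 1.93) were low, and BID and BIK overlapped in range in 2102EP-C1 controls. BCL2 stood at 0.227, 0.178 and 0.190 RPKM, which rested on 33 to 122 reads a library. The experiments were normalized separately, so differences between them were not tested.

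**Figure D1:**
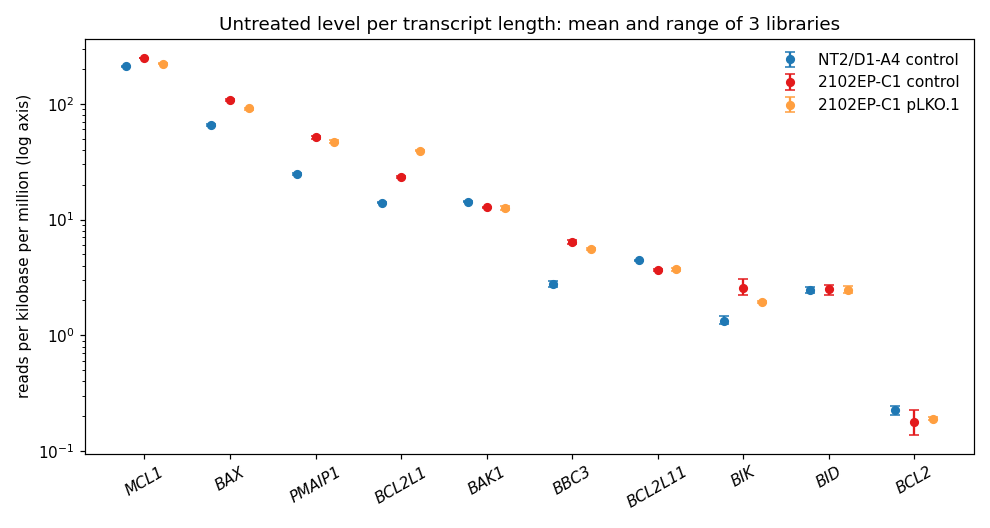
Level of each BCL2 family gene in untreated cells, in reads per kilobase of main transcript per 1e6 reads on a log axis. Points are means of 3 libraries and bars run from the lowest to the highest, with NT2/D1-A4 control, 2102EP-C1 control and 2102EP-C1 pLKO.1 in 3 colors. MCL1 is at the top of the range and BCL2 at 0.178 to 0.227 at the bottom, and PMAIP1 and BBC3 sit lower in NT2/D1-A4 than in 2102EP-C1 cells.

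More of these genes were called with GSK-J4 than with cisplatin at this dose, and the BH3-only gene PMAIP1 and the guardian BCL2L1 were called with GSK-J4 in both clones. In NT2/D1-A4 cells, GSK-J4 alone raised 5 of the 10 genes (PMAIP1, BBC3, BID, BIK and BCL2L1) and lowered 0, where 13.8% of all genes rose, and the median of the 10 log2 differences was 0.39 against 0.0084 over all genes. The combination against untreated cells raised the same 5, where 15.9% of all genes rose. Cisplatin alone raised 1, BBC3, where 2.05% of all genes rose. In 2102EP-C1 cells, GSK-J4 alone raised PMAIP1 and BCL2L1 and lowered BIK, where 7.79% of all genes rose and 3.12% fell, and the median was 0.12 against -0.0017. The combination raised PMAIP1, BBC3 and BCL2L1, where 12.8% of all genes rose. Cisplatin alone changed 0 of the 10, where 1.07% of all genes were called, with 3 of the 10 at an unadjusted p under 0.05 and 0 called by voom.

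In the knockdown experiment, the differences of all 10 genes with sh6A+6B alone were under the fold limit. sh6A+6B alone changed 0 of the 10 genes, where 12.1% of all genes were called and the median of the 10 was 0.04 against -0.0047 over all genes. Cisplatin in pLKO.1 cells also changed 0, where 3% were called, and so did sh6A+6B with cisplatin against untreated pLKO.1 cells, where 16% were called. At an unadjusted p under 0.05 there were 7 of the 10 in each of these 3 comparisons, and voom called 0 in each. Without the fold limit, 6, 6 and 7 of the 10 passed on the adjusted p, where 52.8%, 36.1% and 62.6% of all genes did. Whether the family differed from all genes in these shares was not tested. These libraries were deeper than those of the GSK-J4 experiments, and the part of depth in these shares was not tested.

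**Figure D2:**
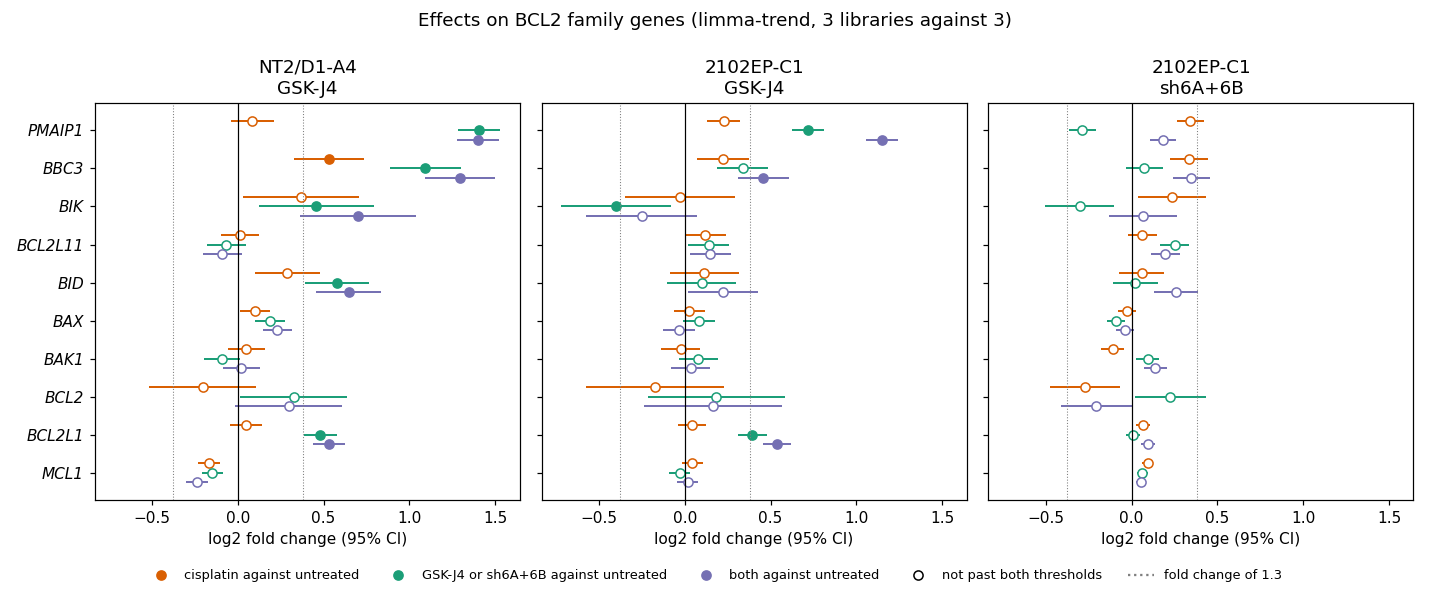
Log2 fold changes of the 10 genes with 95% confidence intervals (limma-trend, 3 libraries against 3) for cisplatin, for GSK-J4 or sh6A+6B, and for both, each against untreated cells, in the 3 experiments. Filled points are past a fold change of 1.3 (dotted lines) and an adjusted p of 0.05. PMAIP1 reaches 1.41 in GSK-J4-treated NT2/D1-A4 cells and 1.15 with the combination in 2102EP-C1 cells, and no point is filled in the knockdown panel.

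PMAIP1, whose product NOXA neutralizes MCL1, had the largest response to GSK-J4 of the 10 genes in both clones. With sh6A+6B it was lower, by an amount under the fold limit. In NT2/D1-A4 cells the control libraries were at 5.53, 5.54 and 5.57 log2 CPM and the cisplatin libraries at 5.60, 5.64 and 5.66. With GSK-J4 they were at 7.03, 6.89 and 6.93, and with the combination at 6.76, 6.996 and 7.08. The pretreated libraries all lay above those without GSK-J4, and the GSK-J4 and combination libraries overlapped. GSK-J4 raised PMAIP1 2.65-fold, by 1.41 ± 0.06 (SE) on the log2 scale with an adjusted p of 7.7e-13. In cisplatin-treated cells GSK-J4 raised it by 1.32 ± 0.06, with an adjusted p of 2.6e-12. Cisplatin itself gave 0.08 without GSK-J4 (adjusted p = 0.41) and -0.01 after it (adjusted p = 0.98), with 95% confidence intervals of -0.04 to 0.21 and -0.13 to 0.12.

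In 2102EP-C1 cells PMAIP1 went up in steps over the arms. The controls were at 6.63, 6.57 and 6.63 log2 CPM, the cisplatin libraries at 6.89, 6.79 and 6.83, the GSK-J4 libraries at 7.31, 7.27 and 7.42, and the combination at 7.90, 7.72 and 7.66. No neighboring arms overlapped. GSK-J4 raised PMAIP1 by 0.72 ± 0.05 (adjusted p = 2.3e-12), the combination by 1.15 ± 0.05, a 2.22-fold change (adjusted p = 6.5e-17), and cisplatin after GSK-J4 by 0.43 ± 0.05 (adjusted p = 1.2e-06). Without replicate 1 of the combination that last difference was 0.36, with an adjusted p of 2.98e-06, and under the fold limit. Cisplatin without GSK-J4 gave 0.23 ± 0.05, with an adjusted p of 0.0032, under the fold limit. The difference of both cisplatin effects, the interaction, was 0.20 with an adjusted p of 0.092.

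In the knockdown experiment PMAIP1 was at 6.46, 6.45 and 6.53 log2 CPM in pLKO.1 cells and lower, at 6.28, 6.12 and 6.18, in sh6A+6B cells. With cisplatin the values were 6.87, 6.85 and 6.75 in pLKO.1 and 6.71, 6.59 and 6.69 in sh6A+6B cells. All 4 arms were apart. The sh6A+6B difference was -0.29 ± 0.04 without cisplatin (adjusted p = 7e-07) and -0.16 ± 0.04 with it (adjusted p = 0.0007), both under the fold limit. On the adjusted p alone, 52.8% of all genes passed with sh6A+6B without cisplatin. Cisplatin raised PMAIP1 in sh6A+6B cells by 0.47 ± 0.04, with an adjusted p of 4.4e-10. In pLKO.1 cells cisplatin gave 0.34 ± 0.04 (adjusted p = 1.5e-07), under the fold limit with all libraries and past it, at 0.38, without replicate 3 of pLKO.1 with cisplatin. The interaction was 0.13 with an adjusted p of 0.065, so a larger cisplatin effect in knockdown cells was not shown by this test.

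The promoter of PMAIP1 is shown because the gene had the largest response to GSK-J4 among the 10. Promoters were taken from RefSeq annotation of GRCh38.p14, in which 8 of the 10 genes matched, all but BIK and MCL1, and the 250 bases before each start were searched on both strands for TGACG, the core of the site bound by CREB and ATF factors, for the E-box CACGTG and for TGATGNAA, the element bound by ATF4 with C/EBP partners. These were found in 21.2%, 6.34% and 3.14% of 35116 promoter windows. The PMAIP1 window lies at chr18:59899746-59899995 on the plus strand, just before the gene, and capitals mark CGTCA, which is TGACG on the other strand, 55 bases before the start.
PMAIP1 promoter: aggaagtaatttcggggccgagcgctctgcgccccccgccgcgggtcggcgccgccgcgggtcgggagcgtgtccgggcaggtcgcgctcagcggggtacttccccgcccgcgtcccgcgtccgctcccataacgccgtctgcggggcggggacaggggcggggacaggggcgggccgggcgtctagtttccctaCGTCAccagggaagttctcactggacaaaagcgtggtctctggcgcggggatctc
TGACG was also found in a window of each of BCL2, BAX and BCL2L1, at 225, 134 and 201 bases before the start. The E-box was found for BBC3, BAX and BID. TGATGNAA was in none of the windows of these 8 genes. BID had 5 windows and BCL2L1 had 2, and the shares above are per window and not per gene. These matches describe letters in a window and no binding was measured.

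BBC3, whose product PUMA binds all guardians, was the 1 gene of the family that rose with cisplatin alone in a GSK-J4 experiment. In NT2/D1-A4 cells the controls were at 2.46, 2.30 and 2.41 log2 CPM and the cisplatin libraries at 2.72, 3.16 and 2.89. With GSK-J4 they were at 3.50, 3.53 and 3.41 and with the combination at 3.82, 3.68 and 3.55. All 4 arms were apart, in the order control, cisplatin, GSK-J4 and combination. Cisplatin raised BBC3 by 0.53 ± 0.10 (adjusted p = 0.0022), GSK-J4 by 1.09 ± 0.10, a 2.13-fold change (adjusted p = 3.6e-08), and the combination by 1.295 ± 0.10, a 2.45-fold change (adjusted p = 2.7e-09). In cisplatin-treated cells GSK-J4 raised it by 0.76 ± 0.10 (adjusted p = 3.6e-06). Cisplatin after GSK-J4 gave 0.20 (adjusted p = 0.35), and the interaction of -0.33, with a 95% confidence interval of -0.62 to -0.04, had an adjusted p of 0.68.

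In 2102EP-C1 cells BBC3 was at 3.52, 3.64 and 3.60 log2 CPM in controls, 3.83, 3.72 and 3.87 with cisplatin, 3.99, 4.06 and 3.72 with GSK-J4 and 4.08, 4.02 and 4.03 with the combination. The combination libraries were above both the control and the cisplatin libraries, and replicate 3 of GSK-J4 lay near the lowest cisplatin library. The combination raised BBC3 by 0.46 ± 0.07 (adjusted p = 7.6e-06). GSK-J4 alone gave 0.34 ± 0.07 with an adjusted p of 0.00068, under the fold limit, and 0.44 without that library, which is past the limit. Knockdown cells showed a BBC3 difference with cisplatin and none past the test with the hairpins. It was at 3.40, 3.33 and 3.37 in pLKO.1 and 3.31, 3.59 and 3.42 in sh6A+6B cells, and at 3.66, 3.71 and 3.73 and at 3.78, 3.71 and 3.66 with cisplatin. Cisplatin gave 0.33 ± 0.05 in pLKO.1 (adjusted p = 2.4e-05) and 0.27 ± 0.05 in sh6A+6B cells (adjusted p = 0.00016), both under the fold limit, and sh6A+6B gave 0.07 (adjusted p = 0.25).

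**Figure D3:**
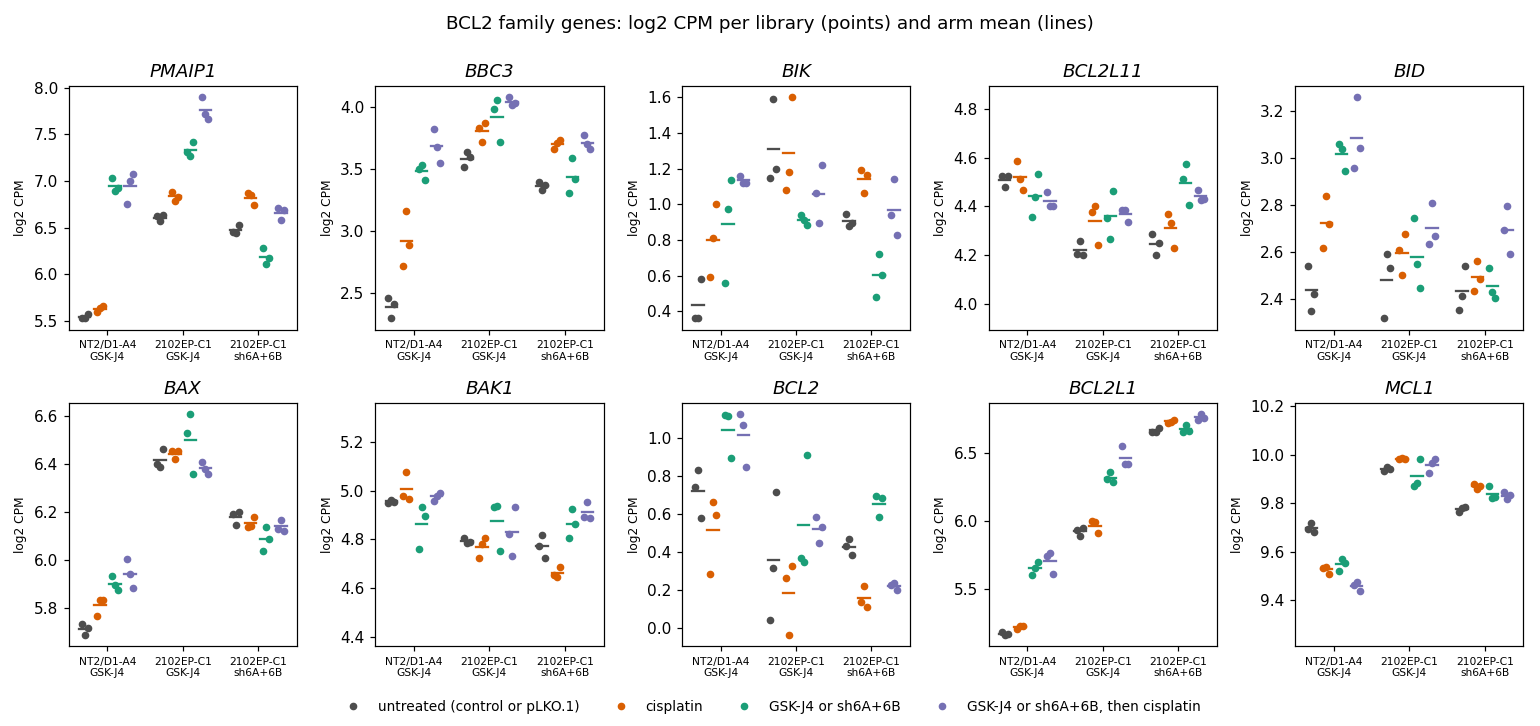
Log2 CPM of each of the 10 genes in every library (points) with the mean of each arm (lines), for the 3 experiments and 4 arms, with a vertical axis of its own for each gene. PMAIP1, BBC3 and BCL2L1 are higher in all GSK-J4 than in all control libraries of both clones, and PMAIP1 is lower in sh6A+6B (6.12 to 6.28) than in pLKO.1 cells (6.45 to 6.53).

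BID, which is cut by caspases to activate BAX and BAK1, rose in NT2/D1-A4 cells. Its controls were at 2.54, 2.35 and 2.42 log2 CPM, cisplatin libraries at 2.62, 2.84 and 2.72, GSK-J4 libraries at 3.06, 3.04 and 2.94 and combination libraries at 2.96, 3.26 and 3.04. The arms with GSK-J4 were above those without it and overlapped each other. GSK-J4 raised BID by 0.58 ± 0.09 (adjusted p = 3.2e-05) and the combination by 0.65 ± 0.09 (adjusted p = 7.1e-06). The GSK-J4 difference in cisplatin-treated cells, 0.36 ± 0.09 with an adjusted p of 0.0029, was under the fold limit. It was past the limit with library size scaling, at 0.39, and without replicate 2 of cisplatin (0.42) or replicate 1 (0.42) or 3 (0.38) of the combination. In 2102EP-C1 cells BID ran from 2.32 to 2.81 over all arms of the GSK-J4 experiment, with no adjusted p under 0.05. With sh6A+6B it was at 2.69, 2.79 and 2.59 after cisplatin, above the 2.53, 2.43 and 2.40 of sh6A+6B alone, a difference of 0.24 ± 0.06 under the fold limit (adjusted p = 0.0035).

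BIK, a BH3-only protein of the endoplasmic reticulum, had low values, with 40 to 118 reads a library in the controls of the GSK-J4 experiments, and was called in opposite directions in the clones, a difference that was not tested. In NT2/D1-A4 cells it was at 0.36, 0.36 and 0.58 log2 CPM in controls, 0.59, 0.81 and 1.00 with cisplatin, 0.56, 0.98 and 1.13 with GSK-J4 and 1.16, 1.12 and 1.12 with the combination. The first GSK-J4 library lay within the range of the controls. The combination raised BIK by 0.70 ± 0.16 (adjusted p = 0.0011) and GSK-J4 alone by 0.46 ± 0.16 (adjusted p = 0.025). The call with GSK-J4 alone was lost without replicate 1 (adjusted p = 0.0725) or 2 (0.0724) of the control or replicate 2 (0.0798) or 3 (0.135) of GSK-J4. In 2102EP-C1 cells BIK was at 1.15, 1.59 and 1.198 in controls and 0.94, 0.91 and 0.89 with GSK-J4, a fall by 0.40 ± 0.16 with an adjusted p of 0.047. That call was lost with the replicate number as a block (adjusted p = 0.0527), with library size scaling (0.0596), with voom (0.0641), with the compared groups alone (0.0501), and without replicate 2 or 3 of the control or any one of the GSK-J4 libraries (adjusted p from 0.0557 to 0.262). Among the knockdown libraries BIK was at 0.94, 0.88 and 0.89 in pLKO.1 and 0.48, 0.72 and 0.60 in sh6A+6B cells, a difference of -0.30 ± 0.10 under the fold limit (adjusted p = 0.011). Cisplatin in sh6A+6B cells gave 0.37 ± 0.10 (adjusted p = 0.0031), just under the limit, and was past it with voom (0.38) and without replicate 2 of sh6A+6B (0.43) or replicate 1 (0.38) or 3 (0.44) of sh6A+6B with cisplatin.

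BCL2L11, whose product BIM binds all guardians, stayed within 4.199 to 4.59 log2 CPM in all 36 libraries. Its largest difference was between sh6A+6B cells, at 4.51, 4.57 and 4.40, and pLKO.1 cells, at 4.29, 4.202 and 4.25. It came to 0.25 ± 0.04 (adjusted p = 1.8e-05), under the fold limit, and the libraries did not overlap. The GSK-J4 difference was -0.07 in NT2/D1-A4 (adjusted p = 0.32) and 0.14 in 2102EP-C1 cells (adjusted p = 0.062). BCL2L11 shares 727 exon bases with the antisense gene MIR4435-2HG, and the strand setting of the count was not given in the sources used here.

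Of the pore formers, neither was called in any comparison. BAX was at 5.73, 5.69 and 5.72 log2 CPM in NT2/D1-A4 controls, 5.77, 5.83 and 5.84 with cisplatin, 5.93, 5.90 and 5.88 with GSK-J4 and 6.00, 5.94 and 5.88 with the combination. The arms with GSK-J4 were above those without it by small amounts, 0.19 ± 0.04 without cisplatin (adjusted p = 0.00089) and 0.13 ± 0.04 with it (adjusted p = 0.013). In 2102EP-C1 cells BAX gave 0.08 with GSK-J4 (adjusted p = 0.15), and -0.09 with sh6A+6B (adjusted p = 0.0039). BAK1 stayed within 4.65 to 5.08 in all libraries. Its clearest pattern was in the knockdown experiment, at 4.77, 4.82 and 4.73 in pLKO.1, 4.65, 4.65 and 4.68 in pLKO.1 with cisplatin, 4.81, 4.92 and 4.87 in sh6A+6B and 4.89, 4.96 and 4.89 in sh6A+6B with cisplatin. The cisplatin libraries of pLKO.1 cells were the lowest and those of sh6A+6B cells overlapped sh6A+6B alone. Cisplatin gave -0.11 ± 0.03 in pLKO.1 (adjusted p = 0.011) and 0.05 ± 0.03 in sh6A+6B cells (adjusted p = 0.27), with an interaction of 0.16 ± 0.05 (adjusted p = 0.011), under the fold limit. BAK1 shares 91 exon bases with GGNBP1 on the other strand.

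Of the guardians, BCL2L1 rose with GSK-J4 in both clones. In NT2/D1-A4 cells it was at 5.19, 5.16 and 5.17 log2 CPM in controls, 5.21, 5.23 and 5.23 with cisplatin, 5.60, 5.66 and 5.70 with GSK-J4 and 5.74, 5.76 and 5.61 with the combination. In 2102EP-C1 cells the same arms were at 5.93, 5.89 and 5.95, at 6.00, 5.99 and 5.91, at 6.31, 6.36 and 6.29, and at 6.54, 6.41 and 6.42. The arms with GSK-J4 lay above those without it in each clone. GSK-J4 raised BCL2L1 by 0.48 ± 0.05 (adjusted p = 7.8e-08) and 0.39 ± 0.04 (adjusted p = 1.9e-08), and the combination by 0.53 ± 0.05 (adjusted p = 1.5e-08) and 0.54 ± 0.04 (adjusted p = 2e-11). Without replicate 2 of GSK-J4 the 2102EP-C1 difference was 0.37 with an adjusted p of 3.33e-07 and under the fold limit. For the knockdown, BCL2L1 differed by 0.01 with sh6A+6B, with a 95% confidence interval of -0.03 to 0.05, and its level, 6.65 to 6.78 over the 12 libraries, was above the 5.89 to 5.95 of the 2102EP-C1 controls of the other experiment. BCL2L1 shares 1735 exon bases with the antisense gene ABALON, which was not listed in any experiment. Whether this overlap added reads to BCL2L1 or removed them was not tested.

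MCL1 was lower than in controls in all treated NT2/D1-A4 libraries, by amounts under the fold limit. There it was at 9.69, 9.72 and 9.68 log2 CPM in controls, 9.53, 9.54 and 9.51 with cisplatin, 9.52, 9.57 and 9.56 with GSK-J4 and 9.46, 9.47 and 9.44 with the combination. The controls were above all treated libraries and the combination below all others. The differences were -0.17 ± 0.03 (adjusted p = 0.0018), -0.15 ± 0.03 (adjusted p = 0.00052) and -0.24 ± 0.03 (adjusted p = 2.5e-06). In 2102EP-C1 cells the corresponding values were 0.04, -0.03 and 0.02, with adjusted p of 0.49, 0.47 and 0.66. Cisplatin gave 0.09 ± 0.02 in pLKO.1 (adjusted p = 3.3e-05) and -0.01 in sh6A+6B cells (adjusted p = 0.71), and the interaction was -0.10 ± 0.02 (adjusted p = 0.00054), under the fold limit. MCL1 shares 43 exon bases with ADAMTSL4 on the other strand. It also shares 328 with the noncoding gene ADAMTSL4-AS1 on the same strand, which was not listed in any experiment.

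BCL2 had few reads and was lower with cisplatin in the knockdown experiment. It was at 0.43, 0.47 and 0.38 log2 CPM in pLKO.1, 0.13, 0.22 and 0.11 in pLKO.1 with cisplatin, 0.69, 0.58 and 0.68 in sh6A+6B and 0.23, 0.24 and 0.20 in sh6A+6B with cisplatin. Cisplatin libraries were below their own untreated libraries in both, and sh6A+6B was the highest arm. BCL2 fell with cisplatin in sh6A+6B cells by 0.43 ± 0.10 (adjusted p = 0.001), and the difference in pLKO.1 cells was -0.27 ± 0.10 (adjusted p = 0.036), under the fold limit, with an interaction of -0.16 (adjusted p = 0.42). In NT2/D1-A4 cells it was at 0.28, 0.66 and 0.59 with cisplatin and 1.12, 1.07 and 0.85 with the combination, a rise by 0.50 ± 0.15 (adjusted p = 0.0092). Without replicate 1 of cisplatin this was 0.39, with an adjusted p of 0.0544. GSK-J4 without cisplatin gave 0.33 (adjusted p = 0.078), from 0.74, 0.83 and 0.58 to 1.12, 1.12 and 0.89. In 2102EP-C1 cells with GSK-J4 the controls alone spread from 0.04 to 0.71, and no BCL2 comparison had an adjusted p under 0.05.

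Set against each other per transcript length, the RNA of PMAIP1 and of its partner MCL1 came closer together with GSK-J4. The ratio of PMAIP1 to MCL1 in NT2/D1-A4 cells was 0.117 ± 0.00305 (SD, n = 3) in controls, 0.139 ± 0.00427 with cisplatin, 0.344 ± 0.0230 with GSK-J4 and 0.366 ± 0.0432 with the combination. In 2102EP-C1 cells the same arms were at 0.207 ± 0.00590, 0.235 ± 0.00828, 0.348 ± 0.00709 and 0.455 ± 0.0489. The ratio in the knockdown experiment was 0.212 ± 0.00629 in pLKO.1, 0.252 ± 0.0115 with cisplatin, 0.166 ± 0.00673 in sh6A+6B and 0.231 ± 0.00842 in sh6A+6B with cisplatin. No neighboring arms overlapped in the 2102EP-C1 experiment with GSK-J4, while both arms with GSK-J4 overlapped in NT2/D1-A4 cells. Summed per length, the 5 BH3-only genes went from 35.6 to 81.0 RPKM after GSK-J4 in NT2/D1-A4 and from 66.6 to 102 in 2102EP-C1 cells, and from 60.7 to 52.9 with sh6A+6B. PMAIP1 made up most of these sums. The 3 guardians went from 224 to 209, from 272 to 275 and from 262 to 272. These are RNA ratios, and protein was not measured in these files.

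Whether GSK-J4 or knockdown changed the cisplatin response of the family was tested as an interaction, and none of the 10 genes was called in any experiment, where 0.0426%, 0.857% and 3.77% of all genes were called. At an unadjusted p under 0.05 there were 1, 2 and 4 of the 10 in the NT2/D1-A4, 2102EP-C1 and knockdown experiments, and voom called 0 in each. On the adjusted p alone, 0 of the 10 passed this interaction for GSK-J4 in 2102EP-C1, where 2.38% of all genes did. BAK1 and MCL1 in the knockdown experiment passed on the adjusted p, as 35.1% of all genes there did. Cisplatin after GSK-J4 changed 0 of the 10 in NT2/D1-A4 cells, where 0.377% of all genes were called, with 2 at an unadjusted p under 0.05 and 0 by voom. It raised PMAIP1 alone in 2102EP-C1 cells, where 0.916% of all genes rose. In sh6A+6B cells cisplatin raised PMAIP1 and lowered BCL2, where 2.48% of all genes rose and 1.04% fell. GSK-J4 in cisplatin-treated cells raised PMAIP1, BBC3, BCL2 and BCL2L1 in NT2/D1-A4 (12.8% of all genes rose) and PMAIP1 and BCL2L1 in 2102EP-C1 cells (10.5% rose). sh6A+6B in cisplatin-treated cells changed 0, where 15.2% of all genes were called, with 5 at an unadjusted p under 0.05 and 0 by voom.

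**Figure D4:**
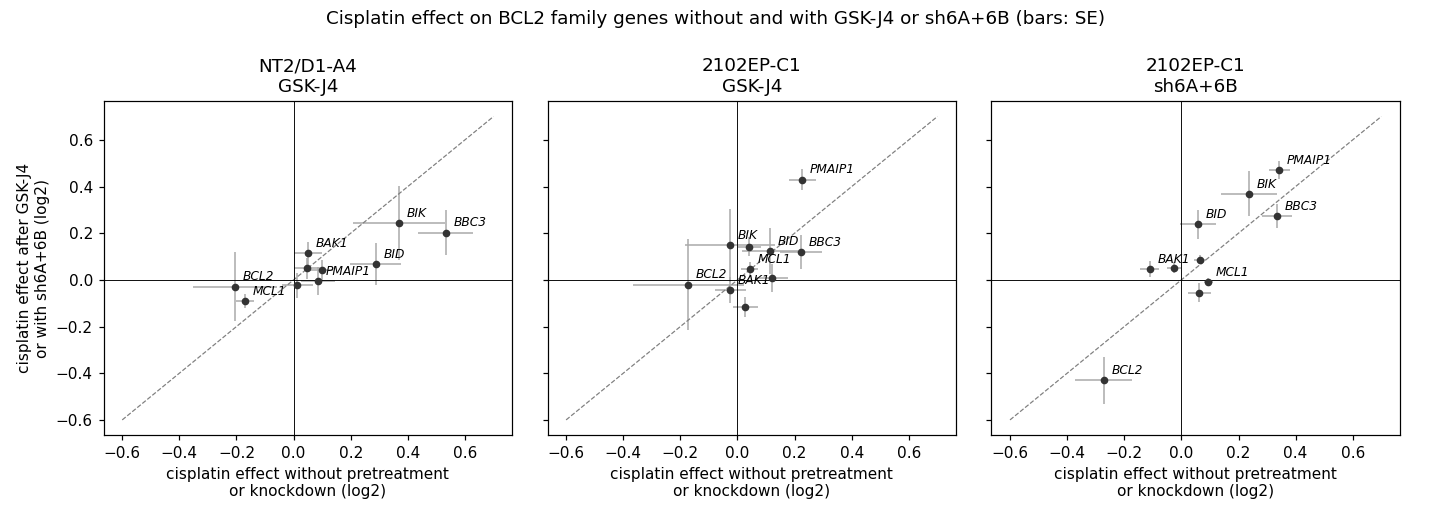
Cisplatin effect on each gene (log2, bars are SE) without GSK-J4 or knockdown on the horizontal axis and with it on the vertical axis, for the 3 experiments. The dashed line marks equal effects. PMAIP1 lies above the line in 2102EP-C1 cells, at 0.23 without and 0.43 with GSK-J4, and BBC3 lies below it in NT2/D1-A4 cells, at 0.53 and 0.20, and neither interaction passed the test.

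Outside the 10 genes, HRK had a larger log2 difference with GSK-J4 than PMAIP1 in both clones. Of 13 further BCL2 family genes 10 were measured, and GSK-J4 raised 2 and lowered 0 of these in NT2/D1-A4 cells, where 13.8% of all genes rose, with a median of 0.05 against 0.0084 over all genes. In 2102EP-C1 cells it raised 1 and lowered 0, where 7.79% of all genes rose, with a median of 0.0051 against -0.0017. In cisplatin-treated 2102EP-C1 cells, GSK-J4 raised 1 (10.5% of all genes rose) and lowered 4, BCL2L12, BCL2L14, BOK and BNIP3. The median there was -0.27 against -0.00056. The combination raised 2 (12.8% of all genes rose) and lowered 2, BCL2L12 and BNIP3, with a median of -0.18 against -0.0005. The shares of all genes that fell in these comparisons are not given here. HRK, a BH3-only gene known from neurons, was at 1.13, 0.79 and 1.43 log2 CPM in NT2/D1-A4 controls and 2.69, 2.72 and 2.67 with GSK-J4. In 2102EP-C1 cells it was at 0.81, 0.63 and 0.85 and at 2.76, 2.68 and 2.65. HRK thus rose by 1.58 ± 0.14 (adjusted p = 4.9e-08) and 1.93 ± 0.11 (adjusted p = 5.4e-13) from a level of 58 to 92 reads a library. HRK fell in the knockdown experiment with cisplatin, by 0.49 ± 0.10 in pLKO.1 (adjusted p = 0.00049) and by 0.59 ± 0.10 in sh6A+6B cells (adjusted p = 3.8e-05). BMF, a BH3-only gene, rose after GSK-J4 in NT2/D1-A4 cells by 0.41 ± 0.08 (adjusted p = 0.00047).

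Downstream of the mitochondrion, 17 of 18 genes of the apoptosome, caspases and their inhibitors were measured, and few were called. GSK-J4 alone raised 0 and lowered 1 in NT2/D1-A4 cells, where 20.3% of all genes were called in either direction, and 0 were called in 2102EP-C1 cells, where 10.9% of all genes were. With sh6A+6B alone 0 of the 17 were called, where 12.1% of all genes were, and 9 passed on the adjusted p alone, where 52.8% of all genes did. APAF1, the scaffold of the apoptosome, rose with the combination by 0.44 ± 0.04 in NT2/D1-A4 (adjusted p = 6.9e-08) and 0.41 ± 0.04 in 2102EP-C1 cells (adjusted p = 2.2e-09). BIRC6, a giant inhibitor of apoptosis, was at 8.39, 8.38 and 8.37 log2 CPM in pLKO.1, 8.68, 8.64 and 8.66 in pLKO.1 with cisplatin, 8.34, 8.31 and 8.31 in sh6A+6B and 8.09, 8.09 and 8.17 in sh6A+6B with cisplatin. Cisplatin thus moved BIRC6 up in pLKO.1 and down in sh6A+6B cells without overlap, with an interaction of -0.49 ± 0.03 (adjusted p = 5.2e-12). In the list of 13 regulators, GSK-J4 raised 5 and lowered 0 in each clone, where 13.8% of all genes rose in NT2/D1-A4 and 7.79% in 2102EP-C1 cells. The stress gene TRIB3 rose by 2.87 and 3.00, DDIT3 (CHOP), a factor of the unfolded protein response, by 2.04 and 2.31, ATF3 by 1.59 and 1.70, and CDKN1A (p21), a cell cycle inhibitor, by 2.07 and 0.93 in NT2/D1-A4 and 2102EP-C1 cells. sh6A+6B alone raised 0 and lowered 0 of the 13, where 12.1% of all genes were called, and 10 of the 13 passed on the adjusted p alone, where 52.8% of all genes did. There CDKN1A gave 0.09 ± 0.03 with sh6A+6B and rose by 0.63 ± 0.03 with cisplatin in pLKO.1 cells (adjusted p = 1.3e-12), and MDM2, a ubiquitin ligase, rose with cisplatin by 0.40 ± 0.02 (adjusted p = 4.6e-13). MDM2 was also among the 5 regulators raised by GSK-J4 alone in each clone.

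Across the 12 arm means, each centered on its experiment, the members that moved most alike were BBC3 and BID, with a Pearson r of 0.964, and PMAIP1 and BCL2L1, with 0.956. PMAIP1 and BBC3 had 0.895, and PMAIP1 and MCL1 -0.459. For likeness to other genes, 12765 were compared, those with a log2-scale mean of at least 1 CPM in each of the 3 experiments. The 3 nearest PMAIP1 in this pattern were TXNIP (0.984), APLF (0.982) and BLOC1S2 (0.979). The 3 nearest BBC3 were NUP62CL (0.982), CLDN1 (0.982) and CDKN1A (0.981). These correlations describe 12 points that share libraries and depth within an experiment.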

How the data were processed

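RNA was sequenced from 36 libraries. Reads were trimmed by the authors, mapped with STAR and assigned to genes with featureCounts (GRCh38.p14 in the submitters' processing notes), and genes were filtered at 0.5 CPM in 2 or more samples and scaled with TMM. Tool versions and the strand setting were not given in the sources used here. The deposited values are log2 CPM at TMM-scaled library sizes with a prior count of 3, tested on the files: 100% of 44947, 44193 and 12595 values under 50 reads came out within 0.05 of a whole read. Fold changes are on that log2 scale, which understates changes of low genes.

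Each experiment was fitted over all its genes and 12 libraries with limma-trend (limma 3.58.1, R 4.3.3), a mean per arm and no block, two-sided, with Benjamini-Hochberg adjustment over all genes. With nothing further on cultures, p-values measure the spread between these libraries. Called genes passed both 1.3 in fold change and 0.05 in adjusted p. Alternatives were a filter at log2 CPM over 1 in every library, the compared groups only, a replicate block, library size scaling, a prior count of 0.5, voom on recovered reads, and leaving out each library. The fit was checked on simulated data. The genes and lists were chosen with earlier results of these data known. Named genes were all 10 members, from each list at most 4 called genes by size, checks (MDM2, CDKN1A, KDM6A, KDM6B) and the 3 nearest patterns. Symbols matched 16414, 17020 and 16443 genes through RefSeq, and lengths came from GENCODE 44. Figures were drawn in Python 3.11.15 with matplotlib 3.10.9. Protein sequences were not used here, and some items of the lists and motifs are not reported here.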

Additional observations from a re-analysis of the deposited data

Results flagged for a closer look

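In 2102EP-C1 cells, the cisplatin effect differed with and without GSK-J4 for 3 genes of the wider lists on the adjusted p of the limma-trend interaction, which 2.38% of all genes passed. BNIP3, a mitophagy gene, differed by -0.53 (adjusted p = 0.016), past the fold limit. BIRC6 at -0.34 (adjusted p = 0.0096) and BNIP3L, named after its values were seen, at -0.33 (adjusted p = 0.012) were under it. In the knockdown experiment the cisplatin effect differed between sh6A+6B and pLKO.1 cells by 0.16 for BAK1 (adjusted p = 0.011) and -0.10 for MCL1 (adjusted p = 0.00054), both under the fold limit, and by -0.49 for BIRC6 (adjusted p = 5.2e-12), past it. On the adjusted p alone 35.1% of all genes passed this interaction, as did 2 of the 10 members, 2 of 10 further family genes, 10 of 17 downstream genes and 5 of 13 regulators.

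Some members had all libraries of an arm on opposite sides of the reference arm in different experiments. These differences between experiments were not tested, and the share of all genes with such a pattern was not counted. All values below were under the fold limit, and several did not pass on the adjusted p of limma-trend. Cisplatin alone gave 0.05 in NT2/D1-A4 (adjusted p = 0.59) and -0.11 in pLKO.1 cells (adjusted p = 0.011) for BAK1. For MCL1 it gave -0.17 in NT2/D1-A4 (adjusted p = 0.0018), 0.04 in 2102EP-C1 (adjusted p = 0.49) and 0.09 in pLKO.1 cells (adjusted p = 3.3e-05). The combination gave -0.09 in NT2/D1-A4 (adjusted p = 0.171) and 0.15 in 2102EP-C1 cells (adjusted p = 0.034) for BCL2L11. GSK-J4 in cisplatin-treated cells gave 0.13 (adjusted p = 0.013) and -0.06 (adjusted p = 0.273) for BAX.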

How the results depend on the processing

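Over 180 pairs of member and comparison, 2274 alternative values were computed: 2191 kept their direction and side of the thresholds, 16 lost a call, 10 gained one, and 57 changed sign, of which 0 had been called. With the replicate block, 179 of 180 kept their direction and side of the thresholds and BIK with GSK-J4 in 2102EP-C1 cells lost its call (-0.40, adjusted p = 0.0527). The replicate numbers were not taken as pairs: of 18 pairs of arms, 0 had all 3 correlations of same-numbered libraries over 0.1 (range -0.247 to 0.419). The stricter filter removed BIK and BCL2 from each experiment, and with them their calls: 1 was left instead of 2 for cisplatin in sh6A+6B cells, 4 instead of 5 for GSK-J4 alone and for the combination and 3 instead of 4 for GSK-J4 in cisplatin-treated cells in NT2/D1-A4, and 2 instead of 3 for GSK-J4 alone in 2102EP-C1 cells. Library size scaling turned the sign of small differences: -0.016 for the BCL2L1 interaction in NT2/D1-A4, -0.0034 for BID and -0.0092 for MCL1 interactions in 2102EP-C1 cells, and 0.000997 for BAX with sh6A+6B in cisplatin-treated cells. The compared groups alone give no other fit for the interaction.

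Leaving out each library in turn gave 0 to 1 called members for cisplatin alone in pLKO.1 cells, 0 to 1 for cisplatin after GSK-J4 and 1 to 3 for GSK-J4 alone in 2102EP-C1 cells. Other counts moved too. In some of these fits BIK lost its call with GSK-J4 alone in NT2/D1-A4 cells and gained one with cisplatin in sh6A+6B cells. For GSK-J4 in cisplatin-treated NT2/D1-A4 cells, BCL2 lost its call or BID gained one. Leaving out a library also turned the sign of small differences. For cisplatin alone the ranges were in the NT2/D1-A4 experiment BCL2L11 -0.020 to 0.041, and in the 2102EP-C1 experiment BCL2 -0.329 to 0.0053, BIK -0.183 to 0.113. For sh6A+6B or GSK-J4 alone the ranges were in the knockdown experiment BBC3 -0.0012 to 0.138, BCL2L1 -0.0066 to 0.017, BID -0.019 to 0.074. For the combination the ranges were in the 2102EP-C1 experiment BAK1 -0.017 to 0.085, and in the knockdown experiment BIK -0.022 to 0.137. For cisplatin after GSK-J4 or with sh6A+6B the ranges were in the NT2/D1-A4 experiment BCL2 -0.103 to 0.054, BCL2L11 -0.065 to 0.022, BID -0.016 to 0.133, PMAIP1 -0.073 to 0.087, and in the 2102EP-C1 experiment BAK1 -0.106 to 0.0048, BCL2 -0.118 to 0.164, BCL2L11 -0.039 to 0.059, and in the knockdown experiment MCL1 -0.017 to 0.0075. For GSK-J4 or sh6A+6B in cisplatin-treated cells the ranges were in the NT2/D1-A4 experiment BAK1 -0.050 to 0.00599, and in the 2102EP-C1 experiment BCL2L11 -0.022 to 0.060, and in the knockdown experiment BAX -0.027 to 0.00031, BBC3 -0.018 to 0.040. For the interaction the ranges were in the NT2/D1-A4 experiment BCL2L1 -0.027 to 0.051, BCL2L11 -0.078 to 0.00898, PMAIP1 -0.158 to 0.0022, and in the 2102EP-C1 experiment BAK1 -0.081 to 0.029, BCL2 -0.025 to 0.336, BID -0.059 to 0.092, MCL1 -0.017 to 0.038, and in the knockdown experiment BBC3 -0.126 to 0.014.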
